A study of Mus musculus with 6 samples.

Results

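The 10 genes Il10, Ebi3, Il12a, Tgfb1, Fgl2, Furin, Penk, Entpd1, Nt5e and Adora2a encode secreted or membrane-bound mediators of suppression and the adenosine pathway. They were taken by name from 38924 gene rows, all 10 were found, and 9 had enough reads to be tested. Their RNA was measured in 3 ILT3+ and 3 ILT3- samples of mouse CD4+CD25+ T cells, which are rich in regulatory T cells (Tregs). Both groups came from untreated wild-type (WT) mice, male and female, aged 10 to 16 weeks, were taken from spleen and mesenteric lymph nodes, enriched for CD25 on magnetic columns and were sorted by flow cytometry for the presence or absence of surface ILT3, an inhibitory immunoglobulin-like receptor of leukocytes. The share of Tregs among the sorted cells was not measured, and the labels do not say whether samples came from separate animals or from pools. The p-values therefore reflect only how much these samples vary, and part of that variation may be technical.

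Tregs restrain other immune cells with secreted cytokines, among them IL-10, TGF-beta and IL-35, and with enzymes on their surface. IL-35 is a pair of EBI3 and the p35 chain encoded by Il12a. TGF-beta is made as a precursor that the convertase furin cuts. Extracellular ATP is a danger signal: CD39, encoded by Entpd1, degrades it to AMP, and CD73, encoded by Nt5e, turns AMP into adenosine. Adenosine then acts on the receptor encoded by Adora2a, which raises cyclic AMP in T cells.

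The Penk and Tgfb1 products are precursors whose cut sites can be read in their coding sequence, and they are shown because Penk had the smallest p of the 10 genes while Tgfb1, a furin substrate, did not pass the test. Penk encodes proenkephalin, the precursor of the opioid pentapeptides Met-enkephalin and Leu-enkephalin. Its coding sequence (GENCODE M21 transcript, GRCm38, minus strand, given 5′ to 3′ along the mRNA) holds 7 enkephalin copies, 6 of Met-enkephalin and 1 of Leu-enkephalin. Capitals mark the 5 codons of each pentapeptide, with 6 bases on either side. All 7 copies follow a pair of codons for basic residues, and 5 of them are also followed by such a pair.
Copy 1, Met-enkephalin, chr4:4134328-4134354: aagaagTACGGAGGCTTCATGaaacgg
Copy 2, Met-enkephalin, chr4:4134307-4134333: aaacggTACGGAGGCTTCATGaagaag
Copy 3, Met-enkephalin, chr4:4134220-4134246: aagaggTATGGCGGCTTCATGaagaag
Copy 4, Met-enkephalin, chr4:4134067-4134093: aagaggTATGGGGGCTTCATGagaagc
Copy 5, Met-enkephalin, chr4:4133995-4134021: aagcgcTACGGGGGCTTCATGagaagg
Copy 6, Leu-enkephalin, chr4:4133935-4133961: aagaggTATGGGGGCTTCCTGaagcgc
Copy 7, Met-enkephalin, chr4:4133842-4133868: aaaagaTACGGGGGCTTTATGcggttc
In Tgfb1 the 4 codons in capitals encode the only match in the precursor to the furin recognition pattern, which is an arginine, any residue, a basic residue and an arginine (plus strand, same source and build).
Tgfb1 cleavage site, chr7:25697229-25697252: agctcaCGGCACCGGAGAgccctg

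Of the 9 tested genes, 5 were higher in ILT3+ cells and 0 lower by edgeR's quasi-likelihood test at an adjusted p of 0.05, and 4 did not pass. The 5 were Penk, Fgl2, Il10, Ebi3 and Furin. In bulk samples like these, more cells of a type and more RNA per cell cannot be told apart. Over all 13694 tested genes 1.96% were called higher and 2.31% were called in either direction. The 5 called genes were also the 5 whose levels in CPM (gene reads scaled to the library total) did not overlap between the groups, against 20.2% of all tested genes, and 11.4% with higher values in ILT3+ cells. The median log2 fold change of the 9 genes was 1.84, beside -0.02 over all tested genes. With the sample number as a block, 6 of the 9 were called higher, Entpd1 being added, against a background of 4.18% higher. Without both samples numbered 1, which stood apart from the other libraries, the same 6 were called, against 4.48%. Of all tested genes 0.343% were called lower, and 8.76% had lower ILT3+ values without overlap.

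The count of called genes depended on the libraries and reads used. It was 5 on unique gene reads (2.23% of all tested genes higher), 4 on exon reads (1.79%) and 2 on unique exon reads (1.61%). It was 5 with RLE factors (1.96%), with upper quartile factors (1.99%) and without the expression filter (1.37%). DESeq2 called 5 (5.09% higher, 1.85% lower) and voom 4 (1.99%). None of the members was called lower with the block or without both samples numbered 1, where 2.62% and 1.15% of all genes were. Leaving out ILT3+ sample 1 gave 5 (1.51%), leaving out ILT3+ sample 2 gave 2 (0.356%) and leaving out ILT3+ sample 3 also gave 2 (0.39%). Without ILT3- sample 1 it was 4, Entpd1 among them (1.91%), and without ILT3- sample 2 (0.44%) or ILT3- sample 3 (0.187%) Penk was the 1 gene left.

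**Figure D1:**
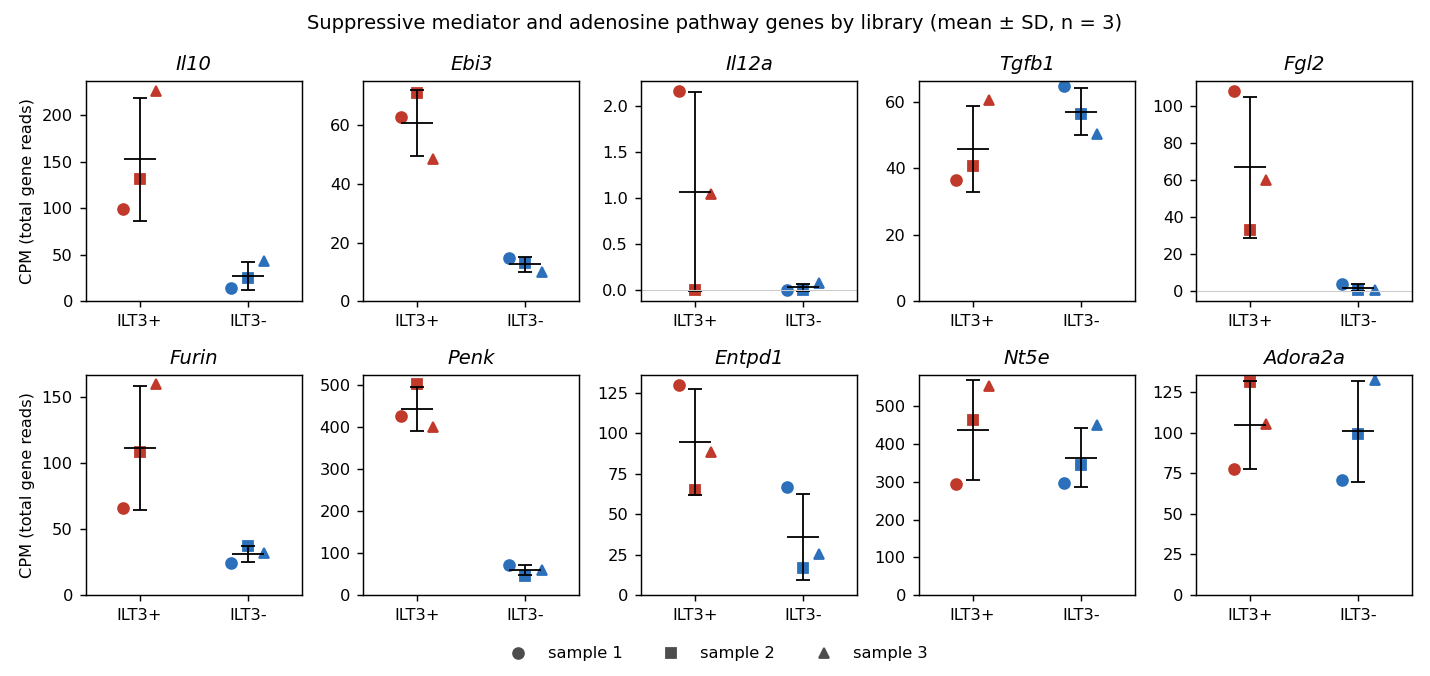
CPM of each gene in every library, from total gene reads, with a separate linear axis per gene. Black bars are the mean ± SD of 3 libraries, and symbols give the sample number. The groups are apart for Il10, Ebi3, Fgl2, Furin and Penk and overlap for the other 5 genes.

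Depth was 9334370 to 13648274 total gene reads per library. Against these totals, without the TMM factors used for CPM elsewhere, 3 reads in a library correspond to 0.220 to 0.321 CPM. The floor used for genes without reads was 3 reads over the whole group, not per library. All counting intervals and floors leave out biological and library error. The defining T cell markers were present in both groups, with a summed level of 4888 to 6355 CPM in ILT3+ and 5073 to 7444 CPM in ILT3- libraries over 10 genes, Lck and Foxp3 having the highest means over both groups together. Only 19.0% of Foxp3 reads were unique. By edgeR, which called 2.31% of all tested genes, and by voom 0 of the 10 passed, 1 having an unadjusted p under 0.05. DESeq2 called 1 lower (Cd5), as did edgeR with the block and without both samples numbered 1. The samples numbered 1 were set apart on the second principal component (31.95% of the variance) and had the most mitochondrial ribosomal RNA, 2.27% and 2.96% of reads against 1.13% to 1.66% in the other 4.

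Penk, the proenkephalin gene (chromosome 4, 4133531 to 4138819, minus strand), had the smallest p of the 10 genes and ranked 10th by p among all tested genes. It stood at 427, 501 and 400 CPM in ILT3+ samples 1, 2 and 3, against 71.1, 46.2 and 60.9 CPM in ILT3- samples 1, 2 and 3. All 3 ILT3+ values were far above the ILT3- values, and the spread within a group was small. The means were 443 ± 52.5 CPM in ILT3+ cells against 59.4 ± 12.5 CPM in ILT3- cells (SD over n = 3 per group), a log2 fold change of 2.90 (edgeR, SE 0.22, adjusted p = 0.00187) or 7.45-fold (95% interval 5.21 to 10.7). The call held in all 16 alternatives, including each of the 6 that leave out 1 library, with log2 fold changes of 2.75 to 3.10 and adjusted p of 1.23e-29 to 0.0296.

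Nearly all Penk reads lay in exons and were counted as unique. Whether unique refers to a position in the genome or to a gene is not given in the sources used here. Exon reads numbered 15428 of 15791 in ILT3+ and 1910 of 2018 in ILT3- libraries, and 95.4% of all its reads were unique. Reads across exon junctions numbered 920 in ILT3+ and 107 in ILT3- libraries. Its gene model overlaps that of A830012C17Rik on the other strand by 499 bases, a gene with 19 reads in all 6 libraries. Per length of exon, Penk was the most abundant of the 10 genes in ILT3+ cells, at 354 ± 39.1 RPKM (exon reads scaled to exon length and to the library total), and stood above 99.0% of 13337 tested genes. In ILT3- cells it was at 46.6 ± 9.37 RPKM, below Nt5e at 93.6 ± 21.8 RPKM, and above 89.7% of the tested genes. Penk made up 53.9%, 51.4% and 41.4% of the summed exon RPKM of the 10 genes in ILT3+ samples 1, 2 and 3, against 25.3%, 17.3% and 17.3% in ILT3- samples 1, 2 and 3.

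Other genes of the opioid system were not called in edgeR. The remaining peptide precursor genes were near or at 0: Pdyn had no reads, and Pomc and Pnoc averaged under 1 CPM in both groups (0.781 and 0.160 CPM in ILT3+ cells against 0.604 and 0.177 CPM in ILT3- cells). Of 9 genes for opioid peptides, their processing and their receptors, 3 were tested and 0 passing in edgeR, 1 having an unadjusted p under 0.05, 1 called by DESeq2 (Cpe) and 0 by voom. Their median log2 fold change was -0.04, and 0 called of 3 is near the 2.31% that edgeR called over all tested genes. Oprm1, the mu opioid receptor gene, of whose reads 4.05% were unique, was at 20.4, 87.7 and 110 CPM in ILT3+ and 50.7, 138 and 91.3 CPM in ILT3- samples 1, 2 and 3, with an edgeR adjusted p of 0.864. Ogfr, a receptor gene for Met-enkephalin, was at 96.4 CPM in ILT3+ cells against 99.1 CPM in ILT3- cells (adjusted p = 0.955, edgeR). The delta opioid receptor gene Oprd1 averaged 0.298 CPM in ILT3+ cells against 0.598 CPM in ILT3- cells.

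Il10 encodes the cytokine IL-10, which dampens antigen presentation and inflammation (chromosome 1, 131019845 to 131024974, plus strand). Its level was 99.6, 132 and 226 CPM in ILT3+ samples 1, 2 and 3, against 14.3, 24.6 and 43.8 CPM in ILT3- samples 1, 2 and 3. In both groups sample 1 was the lowest and sample 3 the highest, and the groups did not overlap. The means were 153 ± 65.7 CPM in ILT3+ cells against 27.6 ± 14.98 CPM in ILT3- cells (SD over n = 3 per group). The difference was 2.46 on the log2 scale (edgeR, SE 0.46, adjusted p = 0.0392), or 5.51-fold (95% interval 2.63 to 11.5). With the sample number as a block it was 2.52 (SE 0.16, adjusted p = 0.00121).

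Much of the Il10 signal lay in introns, and more so in ILT3- cells. Intron reads were 63.9%, 40.3% and 40.4% of its reads in ILT3+ samples 1, 2 and 3, against 89.1%, 67.7% and 56.4% in ILT3- samples 1, 2 and 3. All of its exon reads were unique, against 82.7% of all its reads, so that the reads not counted as unique were intronic. Exon reads alone gave 36.8, 79.9 and 139 RPKM in ILT3+ and 1.65, 8.32 and 19.3 RPKM in ILT3- samples 1, 2 and 3. ILT3- sample 1 held 13 exon reads and no read across a junction. On exon reads the log2 fold change was larger, 3.11, but its SE was 0.80 and the call was lost (adjusted p = 0.111, edgeR). The call was also lost on leaving out any 1 library other than ILT3+ sample 1, with adjusted p of 0.0405 to 0.176 and log2 fold changes of 2.07 to 2.97 over the 6 such fits.

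In edgeR without the block, the genes that carry the IL-10 signal were not called. Of 7 genes for its receptor and signalling, 0 were passing in edgeR, 1 having an unadjusted p under 0.05, with 0 called in DESeq2 and voom, and 1 (Il10ra) was higher with the block. The median log2 fold change was 0.19, and 0 called of 7 is near the 2.31% that edgeR called over all tested genes. The most abundant were Jak1, at 654 ± 69.0 CPM in ILT3+ cells against 853 ± 33.9 CPM in ILT3- cells, and Stat3, at 506 ± 187 CPM in ILT3+ cells against 472 ± 79.5 CPM in ILT3- cells (SD over n = 3 per group). Their edgeR adjusted p were 0.374 and 0.934.

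Ebi3 encodes the beta chain that IL-35 and IL-27 share (chromosome 17, 55952623 to 55957021, plus strand). Its level was 62.6, 70.8 and 48.6 CPM in ILT3+ samples 1, 2 and 3, against 14.9, 13.2 and 9.88 CPM in ILT3- samples 1, 2 and 3. The lowest ILT3+ value was above the highest ILT3- value, and sample 3 was the lowest in both groups. The means were 60.6 ± 11.2 CPM in ILT3+ cells against 12.7 ± 2.55 CPM in ILT3- cells (SD over n = 3 per group), with a log2 fold change of 2.26 (edgeR, SE 0.27, adjusted p = 0.00980) or 4.8-fold (95% interval 3.12 to 7.38). The call was kept in 13 of 16 alternatives and lost on removing ILT3+ sample 2 or either of ILT3- samples 2 and 3, where the adjusted p reached at most 0.0571. Only 57.6% of its exon reads were unique. On unique gene reads it had 1152 in ILT3+ against 237 in ILT3- libraries, and the call held. Its model overlaps Gm16712 on the other strand, which had 74 reads in all libraries.

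The partner chain of IL-35 was close to the limit of detection. Il12a (chromosome 3, 68690644 to 68698547, plus strand) had 23, 0 and 13 total gene reads in ILT3+ samples 1, 2 and 3, against 0, 0 and 1 in ILT3- samples 1, 2 and 3. It was not tested in the main fit. The 23 reads of ILT3+ sample 1 were all intronic, and the 13 of ILT3+ sample 3 were all exonic, 4 of them across a junction. The 36 reads against 1 read make a ratio of 37.1 after scaling for depth, with an exact 95% counting interval of 6.24 to 1500, which takes no account of the spread between libraries. In exon RPKM ILT3+ cells averaged 62.3 for Ebi3 and 0.341 for Il12a, and ILT3- cells 13.2 for Ebi3 and 0 for Il12a. Il27, whose p28 product pairs with EBI3 in IL-27, had 7 reads over the ILT3+ and 2 over the ILT3- libraries, and Il12b, the p40 gene, had none in any library.

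Receptor chains of the IL-12 family differed among themselves. Of 10 genes of this family 7 were tested, 2 were higher and 0 lower, with a median log2 fold change of 0.00 (rounded) and a range of -0.65 to 4.64. Il12rb1, the chain common to the IL-12 and IL-23 receptors, was at 110, 116 and 121 CPM in ILT3+ and 42.3, 29.8 and 47.7 CPM in ILT3- samples 1, 2 and 3 (edgeR log2 fold change 1.53, SE 0.22, adjusted p = 0.0150). Il23r, the other chain of the IL-23 receptor, was at 141, 67.0 and 62.1 CPM in ILT3+ and 6.01, 2.44 and 2.62 CPM in ILT3- samples 1, 2 and 3 (edgeR log2 fold change 4.64, SE 0.51, adjusted p = 0.00760). Il12rb2 and Il6st, chains reported for the mouse IL-35 receptor, differed by -0.09 and -0.65 on the log2 scale (edgeR, adjusted p = 0.966 and 0.158). DESeq2 called Il6st lower in ILT3+ cells.

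Tgfb1 encodes latent TGF-beta 1 (chromosome 7, 25687002 to 25705077, plus strand) and did not pass the test. Its level was 36.4, 40.5 and 60.4 CPM in ILT3+ samples 1, 2 and 3, against 64.6, 56.2 and 50.4 CPM in ILT3- samples 1, 2 and 3. The groups overlapped, through ILT3+ sample 3. The means were 45.8 ± 12.8 CPM in ILT3+ cells against 57.1 ± 7.18 CPM in ILT3- cells (SD over n = 3 per group), and the log2 fold change was -0.32 (edgeR, SE 0.25, adjusted p = 0.679). Its 95% interval of -0.89 to 0.26 leaves room for a level in ILT3+ cells between 0.539 and 1.2 times that in ILT3- cells. Intron reads were 23.4% of its reads in ILT3- sample 1, and 49.9% to 53.6% in the other 5 libraries. Without both samples numbered 1 the log2 fold change was -0.05.

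Furin encodes the convertase that cuts the TGF-beta precursor at the site shown above (chromosome 7, 80388585 to 80405436, minus strand). Its level was 66.1, 108 and 160 CPM in ILT3+ samples 1, 2 and 3, against 24.4, 37.1 and 32.0 CPM in ILT3- samples 1, 2 and 3. All ILT3+ values were above all ILT3- values, with a wider spread among the ILT3+ samples. The means were 112 ± 47.1 CPM in ILT3+ cells against 31.2 ± 6.39 CPM in ILT3- cells (SD over n = 3 per group), a log2 fold change of 1.84 (edgeR, SE 0.34, adjusted p = 0.0377) or 3.58-fold (95% interval 2.07 to 6.16). The reads were 99.9% unique and 12.4% intronic, and reads across junctions numbered 577 in ILT3+ and 94 in ILT3- libraries. The call was lost in 7 of 16 alternatives, among them voom (adjusted p = 0.0552) and each fit that left out a library other than ILT3+ sample 1, with adjusted p up to 0.153. Log2 fold changes stayed between 1.49 and 2.11.

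On total gene reads, with all 6 libraries and no block, edgeR called neither the other convertases nor the TGF-beta activation genes. In this setting it called 2.31% of all tested genes, so that 0 called in lists this short is near the background. Of 8 further proprotein convertase genes 5 were tested, with 0 called by edgeR, DESeq2 or voom, 0 at an unadjusted p under 0.05 and a median log2 fold change of -0.16. The most abundant, Mbtps1 and Pcsk7, were at 160 ± 4.85 and 57.6 ± 12.5 CPM in ILT3+ and at 170 ± 14.95 and 59.9 ± 8.74 CPM in ILT3- cells (SD over n = 3 per group). Of 20 genes that store, activate or receive TGF-beta 17 were tested, with a median of -0.06. On total gene reads 0 were called by edgeR and voom, 3 had an unadjusted p under 0.05 and DESeq2 called 2 lower (Lrrc32 and Ltbp1). On exon reads edgeR called Ltbp1 lower. Lrrc32 encodes GARP, which tethers latent TGF-beta to the Treg surface, and had the highest mean of the 20 genes over both groups together. Its level was 124, 287 and 280 CPM in ILT3+ and 332, 659 and 672 CPM in ILT3- samples 1, 2 and 3 (edgeR log2 fold change -1.27, SE 0.39, adjusted p = 0.186). With the block and without both samples numbered 1, Lrrc32 was called lower in ILT3+ cells. Tgfbr2, a TGF-beta receptor gene, had a log2 fold change of -0.06 (adjusted p = 0.918).

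Fgl2 encodes fibrinogen-like protein 2, a secreted effector of Tregs that binds Fc receptors in mice, and showed the largest fold change of the 9 tested genes (chromosome 5, 21372642 to 21378374, plus strand). Its level was 108, 32.8 and 59.8 CPM in ILT3+ samples 1, 2 and 3, against 4.21, 0.786 and 1.02 CPM in ILT3- samples 1, 2 and 3. The groups did not overlap, and sample 1 was the highest in both. The means were 66.8 ± 38.0 CPM in ILT3+ cells against 2.00 ± 1.91 CPM in ILT3- cells (SD over n = 3 per group), and the log2 fold change was 5.13 (edgeR, SE 0.76, adjusted p = 0.0172), or 35.0-fold (95% interval 10.4 to 118). Without both samples numbered 1 it was 5.69 (adjusted p = 0.00100), and without ILT3+ sample 1 alone 4.59 (adjusted p = 0.0334). Without ILT3- sample 1 it was 6.19 (adjusted p = 0.00746). The call was lost on removing ILT3+ sample 3 or either of ILT3- samples 2 and 3 (adjusted p up to 0.0966).

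Few Fgl2 reads could be tied to this gene alone. Its model lies wholly inside that of Ccdc146 on the other strand (chromosome 5, 21292961 to 21424677), and 6.3% of its 2306 reads in ILT3+ and 59 reads in ILT3- libraries were unique. The unique reads equalled in number the unique reads across exon junctions, 48, 36 and 56 in ILT3+ samples 1, 2 and 3, against 4, 2 and 3 in ILT3- samples 1, 2 and 3. Unique gene reads thus numbered 140 in ILT3+ and 9 in ILT3- libraries, and the groups did not overlap on this count either. On them the log2 fold change was smaller, 3.79 (SE 0.70, adjusted p = 0.0362, or 13.9-fold), and on unique exon reads 3.76 (adjusted p = 0.0559). Ccdc146 had 871, 1650 and 1491 reads in ILT3+ samples 1, 2 and 3 and 277, 283 and 203 reads in ILT3- samples 1, 2 and 3, of which 4738 of 4775 were intronic (log2 fold change 2.25, adjusted p = 0.0183, edgeR). In ILT3+ sample 1 Fgl2 had 1149 total gene reads, more than the 871 of Ccdc146, so that not all Fgl2 reads were counted in both models. How reads in the overlap were assigned is not given in the sources used here. Of 3 genes listed beside Fgl2 (Fcgr2b, Fcgr3 and Fgl1) 1 was tested, Fcgr3. It was called higher by DESeq2 and by edgeR on exon reads, but not by edgeR on total gene reads or by voom. Fcgr3 was at 23.1, 5.15 and 9.65 CPM in ILT3+ and 0.240, 1.65 and 0.654 CPM in ILT3- samples 1, 2 and 3 (adjusted p = 0.0711, edgeR, unadjusted p = 0.0022). Fcgr2b, the inhibitory receptor, averaged 0.939 CPM in ILT3+ cells against 0.461 CPM in ILT3- cells and was not tested.

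**Figure D2:**
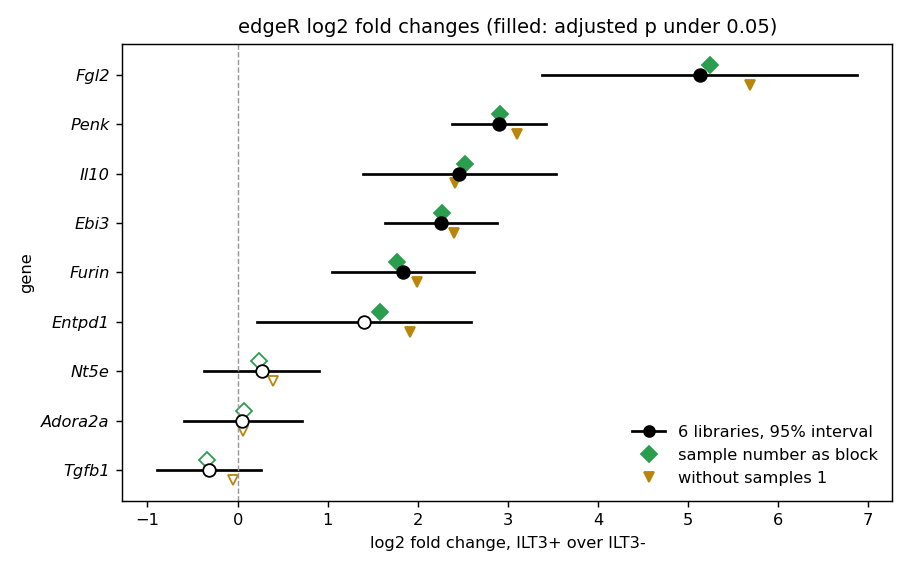
Log2 fold change of ILT3+ over ILT3- for the 9 tested genes. Black circles with lines are edgeR estimates and 95% intervals from 6 libraries, green diamonds have the sample number as a block, and yellow triangles leave out both samples numbered 1; filled symbols have an adjusted p under 0.05. Penk has the narrowest interval among the called genes, and Entpd1 is filled only in the 2 alternatives.

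Of the 3 adenosine pathway genes 0 were called by edgeR, DESeq2 or voom, and 1, Entpd1, had an unadjusted p under 0.05. As edgeR called 2.31% of all tested genes, 0 of 3 is near that share. Entpd1, which encodes CD39 (chromosome 19, 40612366 to 40741602, plus strand), measured 130, 65.3 and 88.6 CPM in ILT3+ samples 1, 2 and 3, against 66.6, 16.6 and 25.1 CPM in ILT3- samples 1, 2 and 3. Sample 1 was the highest and sample 2 the lowest in both groups, and the groups overlapped because ILT3- sample 1 stood just above ILT3+ sample 2. Within every sample number the ILT3+ library was the higher one. The means were 94.7 ± 32.9 CPM in ILT3+ cells against 36.1 ± 26.7 CPM in ILT3- cells (SD over n = 3 per group), and the log2 fold change of 1.40 (SE 0.51, 95% interval 0.21 to 2.59) was not called (adjusted p = 0.270, edgeR). With the sample number as a block it was 1.58 (SE 0.24, adjusted p = 0.0149), and without both samples numbered 1 it was 1.91 (SE 0.28, adjusted p = 0.0101). Without ILT3- sample 1 alone it was 2.18 (adjusted p = 0.0313).

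Nt5e, which encodes CD73 (chromosome 9, 88327609 to 88372089, plus strand), did not differ beyond the spread. Its level was 294, 463 and 553 CPM in ILT3+ samples 1, 2 and 3, against 298, 343 and 450 CPM in ILT3- samples 1, 2 and 3. Sample 1 was the lowest and sample 3 the highest in both groups, which overlapped. The log2 fold change was 0.27 (edgeR, SE 0.27, adjusted p = 0.772), and its 95% interval of -0.37 to 0.90 spans 0.775-fold to 1.86-fold. No alternative called it, with adjusted p of 0.325 to 0.982. At 93.6 ± 21.8 exon RPKM Nt5e was the most abundant of the 10 genes in ILT3- cells, and at 118 ± 37.0 exon RPKM it came after Penk in ILT3+ cells (SD over n = 3 per group). Per length, Nt5e exceeded Entpd1 by 4.64, 15.1 and 11.7 times in ILT3+ samples 1, 2 and 3, against 6.80, 40.8 and 35.8 times in ILT3- samples 1, 2 and 3. The ratio was lower in the ILT3+ library of all 3 same-numbered pairs, a difference not tested in pairs. The groups overlapped in this ratio when the numbers were ignored (exact permutation test, two-sided p = 0.3, with 0.1 the smallest p that 3 against 3 allows).

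Adora2a, the adenosine receptor gene (chromosome 10, 75316943 to 75334788, plus strand), had nearly equal means. Its level was 77.3, 131 and 105 CPM in ILT3+ samples 1, 2 and 3, against 70.5, 99.2 and 132 CPM in ILT3- samples 1, 2 and 3. The ranges of the groups coincided almost fully. The means were 105 ± 26.9 CPM in ILT3+ cells against 101 ± 31.0 CPM in ILT3- cells (SD over n = 3 per group), with a log2 fold change of 0.05 (edgeR, SE 0.28, adjusted p = 0.966) and a 95% interval of -0.60 to 0.71. The interval does not exclude a change of up to 1.63-fold. Adora2b and Adora1, further adenosine receptor genes, were hardly detected, Adora2b at 0.832 CPM in ILT3+ cells against 0.709 CPM in ILT3- cells and Adora1 at 0.160 CPM in ILT3+ cells against 0.0727 CPM in ILT3- cells.

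Genes around the 3 adenosine pathway members were mostly not called. As edgeR called 2.31% of all tested genes, 0 called in a list this short is near that share. Of 16 further genes that make, degrade or transport extracellular nucleotides and adenosine 12 were tested, with 0 called by edgeR, DESeq2 or voom, 1 at an unadjusted p under 0.05 and a median log2 fold change of -0.35. Adk, the kinase that returns adenosine to AMP inside the cell, was at 111, 198 and 161 CPM in ILT3+ and 120, 408 and 391.6 CPM in ILT3- samples 1, 2 and 3 (adjusted p = 0.400, edgeR). It was called lower in ILT3+ cells without both samples numbered 1, as was Dpp4, which encodes CD26, with the block. Slc29a1, an adenosine transporter gene, was at 107 CPM in ILT3+ cells against 122 CPM in ILT3- cells (adjusted p = 0.889, edgeR). Of 12 adenosine and P2 receptor genes 11 were matched and 5 tested, with 1 called higher and a median of -0.19, also with that gene at its lower bound. With the block P2ry10 was called lower in addition. The gene called without the block was P2ry1, an ADP receptor gene, with 151 reads over the ILT3+ and 0 over the ILT3- libraries, which is at least 51.8-fold higher when 3 reads over the group are taken as the floor. Its level was 5.82, 3.30 and 3.83 CPM in ILT3+ samples 1, 2 and 3 (adjusted p = 0.0211, edgeR). Of 16 cyclic AMP signalling genes 15 were tested, with 0 called by edgeR and voom, 3 at an unadjusted p under 0.05, 1 called higher and 1 lower by DESeq2 (Prkar2a and Adcy6) and a median of 0.06. With the block, and without both samples numbered 1, Adcy7 was called higher. The most abundant were Prkar1a (log2 fold change 0.30, adjusted p = 0.766) and Crem (log2 fold change 0.00 when rounded, adjusted p = 1.00).

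**Figure D3:**
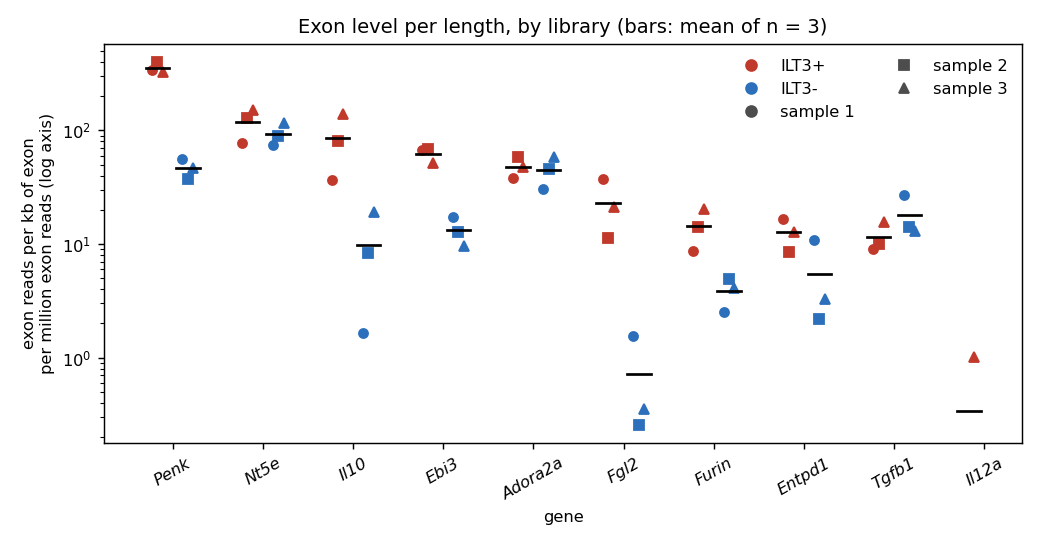
Exon reads scaled to exon length and library total (RPKM, log axis) of each gene, ordered by the ILT3+ mean; points are libraries and bars the mean of 3. Libraries without exon reads, which occur only for Il12a, are not drawn. Penk is highest in ILT3+ cells and Nt5e in ILT3- cells.

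Per length of exon the order of the ILT3+ means was Penk, Nt5e, Il10, Ebi3, Adora2a, Fgl2, Furin, Entpd1, Tgfb1 and Il12a. In ILT3+ cells the ranges of Penk and Nt5e did not overlap. The range of Il10 overlapped those of Nt5e, Ebi3, Adora2a and, narrowly, Fgl2. Those of Fgl2, Furin, Entpd1 and Tgfb1 overlapped each other. The order of the ILT3- means was Nt5e, Penk, Adora2a, Tgfb1, Ebi3, Il10, Entpd1, Furin, Fgl2 and Il12a. There the ranges of Penk and Adora2a overlapped, as did those of each neighbour from Tgfb1 to Furin, while Nt5e lay above Penk, and Fgl2 below Furin, in all libraries. Il10 relative to Tgfb1 was 4.06, 8.00 and 8.89 in ILT3+ samples 1, 2 and 3, against 0.0616, 0.594 and 1.48 in ILT3- samples 1, 2 and 3. These ratios did not overlap (exact permutation test, two-sided p = 0.1, the smallest that this design allows).

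Other effector genes and regulators were read from lists of their own. Of 16 other mediators of suppression 15 were tested, with 2 higher, 0 lower and a median log2 fold change of 0.55. Lag3, an inhibitory receptor for MHC class II, was at 150 ± 34.5 CPM in ILT3+ cells against 37.2 ± 11.2 CPM in ILT3- cells (SD over n = 3 per group, edgeR log2 fold change 2.02, SE 0.28, adjusted p = 0.0147). Lgals3, which encodes galectin-3, was at 31.8 ± 10.2 CPM in ILT3+ cells against 10.0 ± 0.604 CPM in ILT3- cells (SD over n = 3 per group, edgeR log2 fold change 1.67, SE 0.33, adjusted p = 0.0480). With the block, and likewise without both samples numbered 1, 5 were higher, Hmox1, Gzmb and Tigit being added. Of 17 transcription factors known to act on Il10 or in effector Tregs 3 were higher and 0 lower, with a median of 0.55, and with the block or without both samples numbered 1 7 were higher. The 3 were Prdm1, Maf and Batf. Prdm1, which encodes Blimp-1, was at 103, 87.9 and 100 CPM in ILT3+ and 8.77, 7.31 and 7.34 CPM in ILT3- samples 1, 2 and 3 (edgeR log2 fold change 3.64, SE 0.21, adjusted p = 0.000435). Maf was at 181, 117 and 130 CPM in ILT3+ and 34.4, 19.3 and 14.5 CPM in ILT3- samples 1, 2 and 3 (edgeR log2 fold change 2.66, SE 0.35, adjusted p = 0.0127). Batf had a log2 fold change of 1.63 (edgeR, SE 0.26, adjusted p = 0.0216).

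**Figure D4:**
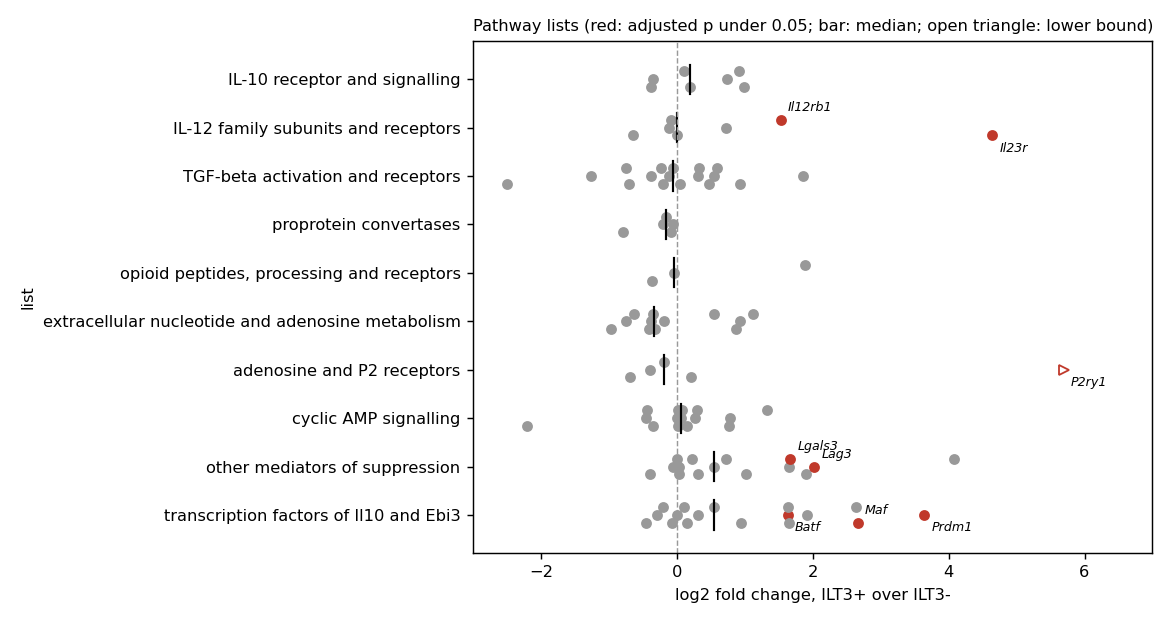
Log2 fold change of ILT3+ over ILT3- for each tested gene of 10 pathway lists (the list with Fcgr3 alone is not drawn). Red points have an adjusted p under 0.05 in edgeR, the black bar is the list's median, and the open triangle is P2ry1 at the lower bound set by 0 reads in ILT3- libraries. Called genes appear in 4 lists and all lie to the right of 0.

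Promoter sequences, from 250 bases before to 50 after the RefSeq start (GRCm38.p6), were matched for 7 of the 10 genes, not for Il10, Penk and Adora2a. Whether the products of Prdm1, Maf and Batf, also higher in ILT3+ cells, act on the called genes was not tested. The promoters of the called genes Ebi3, Fgl2 and Furin are shown, and the motifs include those of these factors. Each was searched on both strands for the AP-1 motif TGANTCA, to which BATF pairs bind, the MAF half-site TGCTGAC, the cyclic AMP response element TGACGTCA and the Blimp-1 core AGNGAAAG. No motif contains another. Capitals mark matches.
Ebi3, chr17:55952373-55952672, plus strand: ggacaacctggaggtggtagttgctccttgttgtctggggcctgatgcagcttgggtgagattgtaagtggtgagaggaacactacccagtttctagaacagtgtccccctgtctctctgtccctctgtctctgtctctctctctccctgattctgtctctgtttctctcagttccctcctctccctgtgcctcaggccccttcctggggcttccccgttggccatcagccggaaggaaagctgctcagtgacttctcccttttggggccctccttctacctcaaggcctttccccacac
Fgl2, chr5:21372423-21372722, plus strand: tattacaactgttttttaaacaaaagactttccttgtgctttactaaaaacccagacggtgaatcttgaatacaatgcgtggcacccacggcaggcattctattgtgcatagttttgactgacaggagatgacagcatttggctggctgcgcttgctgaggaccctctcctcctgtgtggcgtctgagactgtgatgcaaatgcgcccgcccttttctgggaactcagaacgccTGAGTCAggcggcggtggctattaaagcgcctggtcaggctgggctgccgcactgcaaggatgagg
Furin, chr7:80405387-80405686, minus strand: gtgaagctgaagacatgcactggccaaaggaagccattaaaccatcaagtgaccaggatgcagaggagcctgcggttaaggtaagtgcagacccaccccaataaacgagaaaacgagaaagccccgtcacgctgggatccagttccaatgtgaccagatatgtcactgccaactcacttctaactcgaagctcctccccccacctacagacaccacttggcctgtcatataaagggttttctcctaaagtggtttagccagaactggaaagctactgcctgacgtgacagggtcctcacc
Furin, chr7:80402763-80403062, minus strand: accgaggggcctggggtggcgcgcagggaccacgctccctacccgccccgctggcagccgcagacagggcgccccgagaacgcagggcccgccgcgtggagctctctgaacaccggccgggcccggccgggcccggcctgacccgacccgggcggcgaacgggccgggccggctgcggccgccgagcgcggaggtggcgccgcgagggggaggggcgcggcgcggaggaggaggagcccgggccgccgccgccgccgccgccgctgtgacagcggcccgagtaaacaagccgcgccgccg
The only match among these 4 sequences was an AP-1 motif in Fgl2, which begins 16 bases before the start. Of 32851 promoters of the same length 7.81% held this motif. The shares for the MAF half-site, the cyclic AMP response element and the Blimp-1 core were 4.67%, 1.79% and 8.63%. The promoters of Tgfb1, Nt5e and Entpd1 held none of the 4 motifs, while 1 of the 2 Il12a promoters held the Blimp-1 core at 2 positions. The Furin promoters differed in composition, with 51.3% G and C at the upstream start and 82.3% at the other. A match is a description of the letters in this window only.

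Markers of other cell types were also present, unevenly over the libraries. As edgeR called 2.31% of all tested genes, 0 called in a list this short is near that share. Of 13 monocyte and macrophage genes 7 were tested, with 0 called by edgeR, DESeq2 or voom, 4 at an unadjusted p under 0.05 and 3 higher with the block. Their summed level was 1098, 30.2 and 38.4 CPM in ILT3+ samples 1, 2 and 3, against 34.8, 20.2 and 12.1 CPM in ILT3- samples 1, 2 and 3. ILT3+ sample 1, the library with 266 CPM of Csf1r and 339 CPM of Vcam1, was also the highest for Entpd1 and Fgl2. Without this library the log2 fold change of Fgl2 was 4.59 and that of Entpd1 1.10 (adjusted p = 0.0334 and 0.436, edgeR), and without both samples numbered 1 they were 5.69 and 1.91. Of 12 dendritic cell genes 7 were tested and 3 were higher, Batf3, Ccl22 and Fscn1. With the block 4 were higher, Zbtb46 being added, and Ccr7 was lower. Without both samples numbered 1, 5 were higher, Zbtb46 and Xcr1 being added, and Ccr7 was again lower. The list's summed level was 307 to 739 CPM in ILT3+ and 372 to 2120 CPM in ILT3- libraries, most of it from Ccr7, which T cells also express, and Cd209a had no reads while Clec9a and Clec10a had at most 3 in any library. Ccl22 measured 10.4, 9.17 and 9.25 CPM in ILT3+ samples 1, 2 and 3 and had 0 reads in the ILT3- group, so that it was at least 117-fold higher with 3 reads over that group as the floor. Dendritic cells also express Ebi3, and their part in its result was not tested.

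The B cell list was present at a summed 850 to 1760 CPM in ILT3+ and 358 to 1020 CPM in ILT3- libraries, nearly all of it from Ighm, with 0 of 7 tested genes called by edgeR, DESeq2 or voom, 1 at an unadjusted p under 0.05 and 1 higher with the block. The plasma cell list summed to 337 to 727 CPM in ILT3+ and 233 to 602 CPM in ILT3- libraries, with Prdm1, also a factor of effector Tregs, as the 1 called gene of 6 tested. Most of this sum came from Xbp1 and Irf4. Among NK and innate lymphoid markers 4 of 6 tested genes were higher, among them Il1rl1, Kit and Tyrobp, at a summed 632 to 852 CPM in ILT3+ and 200 to 285 CPM in ILT3- libraries, with Klra8 at 0. Hba-a1 and Hba-a2 were higher among 5 tested erythroid and platelet genes, at a summed 42.4 to 204 CPM in ILT3+ and 1.89 to 10.8 CPM in ILT3- libraries. Only 21.0% of the Hba-a1 reads and 17.4% of the Hba-a2 reads were unique. By edgeR 0 genes were called among 2 tested CD8 T cell genes (0 had an unadjusted p under 0.05, 0 passed in DESeq2 and voom), 5 plasmacytoid dendritic cell genes (3 had an unadjusted p under 0.05, Bst2 passed in DESeq2 and voom) and 1 stromal gene (0 had an unadjusted p under 0.05, 0 passed in DESeq2 and voom). With the block Bst2 was called higher and the stromal gene, Pecam1, lower. Their summed levels were 13.8 to 17.8, 201 to 244 and 85.4 to 184 CPM in ILT3+ and 11.5 to 30.8, 104 to 120 and 146 to 329 CPM in ILT3- libraries. The stromal sum came almost wholly from Pecam1, at 120 CPM in ILT3+ cells against 218 CPM in ILT3- cells. Most of the plasmacytoid dendritic cell sum came from Bst2, Ccr9 and Tcf4. Siglech of that list had 10 reads over the ILT3+ and 15 over the ILT3- libraries. The 6 neutrophil genes were near 0 and not tested, at a summed 0.375 to 0.402 CPM in ILT3+ and 0.120 to 0.236 CPM in ILT3- libraries. The part of these cells in the results for the 10 genes was not tested.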

How the data were processed

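Total RNA of 6 sorted samples was made into full-length cDNA from 1 ng with SmartSeq V2 chemistry and into Nextera XT libraries, per the labels' protocols. Per the file headers, each sample has 1 deposited table of read counts by gene, exon, exon junction and intron. Per the submitters' processing notes the genome build was GRCm38. The aligner, counter, annotation and use of strand were not given in the sources used here. Total gene reads are the sum of exon and intron reads. Intronic reads were 24.0% to 28.3% of a library.

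Total gene reads were compared between ILT3+ and ILT3- with edgeR 4.0.16 in R 4.3.3 (TMM factors, default expression filter with minimum count 10 and total 15, robust quasi-likelihood fit on group, Benjamini-Hochberg adjustment over all genes at 0.05). CPM used TMM-scaled library sizes, SE is the log2 fold change over the root of F, and RPKM was computed here from exon reads and the deposited exon lengths. No pair of libraries agreed within sampling noise (chi-square 19.8 to 142 times its degrees of freedom). The 16 alternatives were other read columns, RLE and upper quartile factors, no filter, DESeq2 1.42.0, voom in limma 3.58.1, the sample number as a block, each library left out, and both samples numbered 1 left out. The steps were checked on simulated counts.

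Same-numbered ILT3+ and ILT3- samples deviated together from their group means (r = 0.40, 0.26 and 0.27, all over 0.1), and were therefore treated as pairs in the blocked fit. Crossing the numbers 2 and 3 also gave r over 0.1 (0.117 for ILT3+ 3 and ILT3- 2, 0.163 for ILT3+ 2 and ILT3- 3), and this bound therefore separates only number 1. This comes from the data, as the labels do not state it. The members and the 22 gene lists were chosen with earlier results of these data known. Of 229 symbols 223 were matched by name, 2 through RefSeq synonyms and 4 were not matched. Named genes are the 10 members, the called genes of each pathway list or its 2 most abundant genes, and up to 4 called and the 2 most abundant of each cell type list, the last given in part. Others were named after their values were seen, among them Cd5, Il10ra, Adora2b, Dpp4, Ltbp1 and Hmox1. Some genes that this rule names are not reported here.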

Additional observations from a re-analysis of the deposited data

How the results depend on the processing

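Of 176 comparisons of a result with an alternative, 137 kept the direction and the side of the threshold or stayed within 1.5 times a count. The 316 genes called became 204 on unique exon reads, 951 with DESeq2, 932 with the sample number as a replicate block and 786 without both samples numbered 1, and 31 to 322 on leaving out 1 library. The 5 called members became 2 on unique exon reads and 1 to 5 on leaving out 1 library. Il10 lost its call on total exon reads (log2 fold change 3.11) and unique exon reads (3.10), Fgl2 on unique exon reads (3.76), and Furin on unique exon reads (1.89) and with voom (1.74). Entpd1 gained a call with the replicate block (1.58) and without both samples numbered 1 (1.91), and the block changed no other member's call. On leaving out 1 library the log2 fold changes ranged from 2.07 to 2.97 for Il10, 2.11 to 2.40 for Ebi3, 4.59 to 6.19 for Fgl2, 1.49 to 2.11 for Furin, 1.06 to 2.18 for Entpd1 and -0.15 to 0.30 for Adora2a. Adora2a turned negative without ILT3- replicate 1 (-0.15) and without ILT3+ replicate 2 (-0.13), at adjusted p of 0.857 and 0.953. Fits without 1 library leave a group of 2. The cause of these shifts was not tested. Il12a, Adora1, Pomc, Pnoc and Pdyn had too few reads or none and were not tested in the main fit. Without the expression filter the log2 fold change of Il12a was 4.82 (SE 1.66, adjusted p = 0.268, edgeR). It passed the filter in 4 of the fits without 1 library, with 4.32 to 6.60 and adjusted p of 0.154 to 0.528 (edgeR).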

Other observations

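Some neighbours of the 10 genes had more reads in ILT3+ than in ILT3- libraries, and are named after their values were seen. Of these, Pcsk1 and P2rx1 had too few reads to pass the expression filter and were not tested. Cpe and Hmox1 were not called by edgeR on total gene reads with all 6 libraries and no block. Pcsk1, a convertase that processes neuropeptide precursors, had 89 reads over the ILT3+ and 1 over the ILT3- libraries, which is 91.6 times as many after scaling (95% counting interval, exact, 16.0 to 3660), at 0.657, 2.90 and 3.67 CPM in ILT3+ samples 1, 2 and 3. Cpe, the carboxypeptidase that trims such peptides, was at 5.35, 6.51 and 7.90 CPM in ILT3+ and 1.32, 1.57 and 2.40 CPM in ILT3- samples 1, 2 and 3 (log2 fold change 1.89, SE 0.52, adjusted p = 0.137, edgeR). Pcsk2, a further convertase gene of the same list as Pcsk1, was not among those with more ILT3+ reads. It had 58 reads over the ILT3+ and 64 over the ILT3- libraries (log2 fold change -0.16, SE 0.55, adjusted p = 0.944, edgeR). P2rx1, an ATP-gated channel gene, had 102 reads over the ILT3+ and 0 over the ILT3- libraries, at 8.63, 0.804 and 0 CPM in ILT3+ samples 1, 2 and 3, so that most of them came from sample 1. Hmox1, which encodes heme oxygenase 1, was likewise highest in ILT3+ sample 1, at 244, 17.6 and 20.5 CPM in ILT3+ and 10.2, 1.96 and 4.796 CPM in ILT3- samples 1, 2 and 3 (adjusted p = 0.149, edgeR).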
